A study of Mus with 12 samples.

Results

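Oxytocin and the endothelins are peptide hormones that make smooth muscle contract. The 10 genes described here encode oxytocin (Oxt), its receptor (Oxtr), a vasopressin receptor that oxytocin can also bind (Avpr1a), a membrane aminopeptidase that breaks oxytocin down (Lnpep), the endothelins (Edn1, Edn2 and Edn3), the enzyme that cuts their precursors to the active peptides (Ece1) and the endothelin receptors (Ednra and Ednrb). They were chosen by name, as the rows of the deposited gene tables that carry one of these names and an Ensembl transcript. The table of the early days names 55267 genes and that of the late days 35084 genes, and all 10 were found in both, with 1 such row each.

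Both systems use receptors that couple to Gq proteins: phospholipase C then makes inositol trisphosphate, calcium is released from stores inside the cell, and calcium with calmodulin activates the kinase that phosphorylates myosin light chain. In the pregnant uterus the muscle layer is kept quiet under progesterone, and oxytocin receptor abundance rises before birth. Endothelin 1 made by endothelial and epithelial cells contracts vessels and uterine muscle through the A receptor, whereas the B receptor of endothelial cells also relaxes vessels and clears the peptide from the blood.

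RNA was sequenced from the uteri of 12 pregnant ICR mice, an outbred strain, with 3 mice on each of 4 days after mating: E0.5 and E4.5, then E15.5 and E18.5. The mice are given as 8 weeks old, each library came from the whole uterus of 1 mouse, and no transgene or treatment is given for any group. E0.5 with E4.5 formed the implantation stage and E15.5 with E18.5 the labor stage, and the study, which asked which transcripts may be regulated by progesterone, set the days of a stage against each other. The whole uterus pools muscle, lining, stroma and vessels, so that fewer cells of a type and less RNA per cell cannot be told apart.

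The libraries of the implantation stage held 58020989 to 70906881 counts, whereas for the labor stage only FPKM (fragments per kilobase of transcript, scaled to the library's total) are used, from which the depths of E18.5 replicate 1 and replicate 3 were estimated at 0.646 and 0.818 of that of E15.5 replicate 1 and the others at 0.966 to 1.05. The 6 smooth muscle markers (Myh11, Acta2 and others) had a summed level of 201 to 1192 FPKM in the implantation stage and of 2912 to 4398 FPKM in the labor stage, and no marker of muscle, endothelium, epithelium or stroma was at 0 in a group. The 7 trophoblast and placenta markers were at 0 at E0.5, and 6 of the 7 were at 0 at E4.5. E4.5 replicate 3 stood apart: its 6 ovary markers (among them Star and Cyp11a1, which act in steroid synthesis) summed to 1344 FPKM against 4.29 to 6.44 in the other 5 libraries, and its smooth muscle markers to 201 FPKM against 780 to 1192. E15.5 replicate 1 also stood apart, with 1344 FPKM of decidual markers (1342 of them from Prl8a2) against 73.5 and 87.5 in the other E15.5 libraries and 57.4 FPKM of trophoblast and placenta markers against 7.69 and 5.44. The 5 yolk sac markers ran unevenly late in pregnancy, at 1.44, 98.9 and 759 FPKM at E15.5 and 91.5 to 516 FPKM at E18.5, and without E15.5 replicate 3, the highest, Oxtr and Edn1 again met the study's criterion, with log2 fold changes of 1.98 and 1.21. Values without E4.5 replicate 3 and E15.5 replicate 1 are given beside the results they touch. Beyond that, the part of these tissues in the results was not tested.

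**Figure D1:**
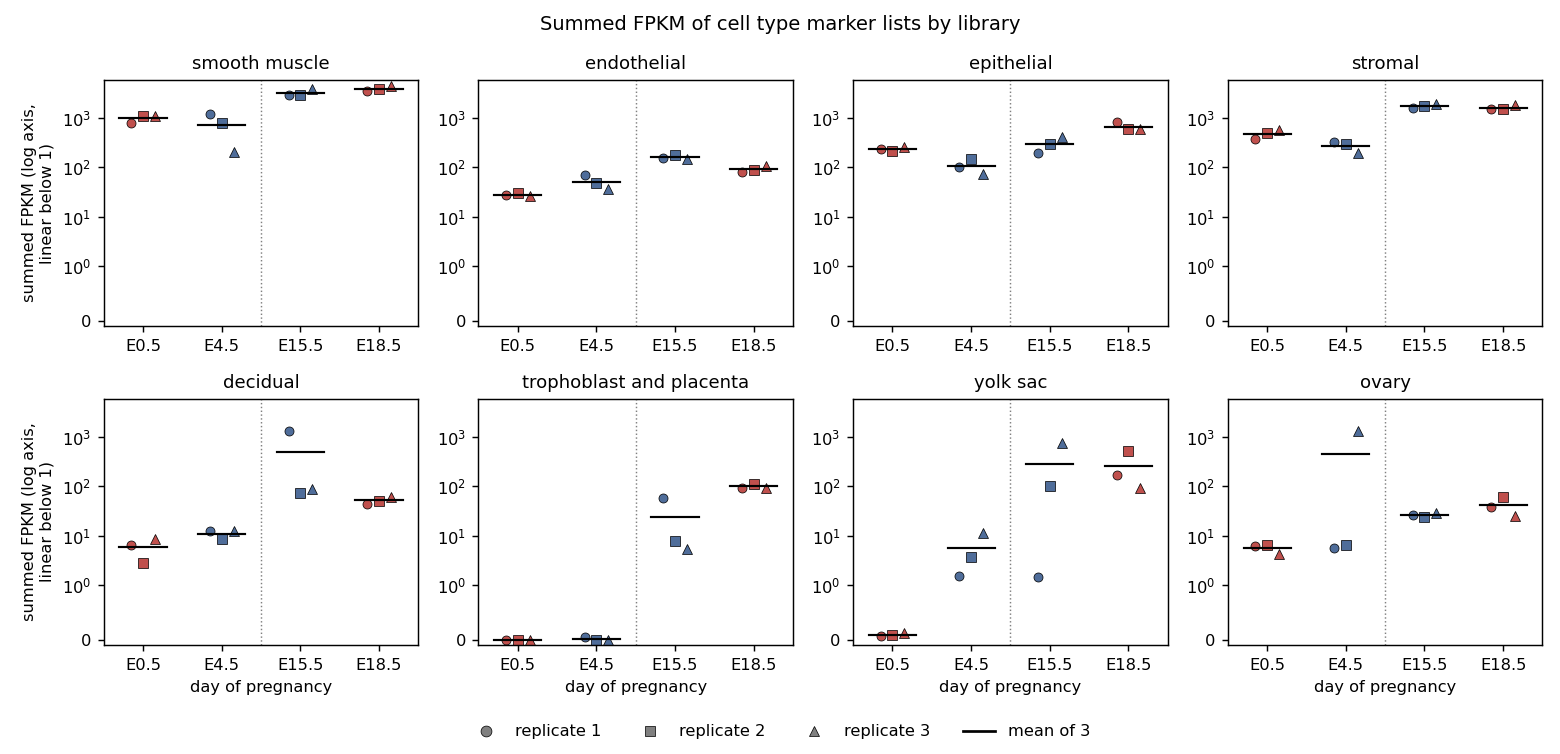
Summed FPKM (vertical axis, logarithmic above 1) of 8 lists of cell type markers in the 12 libraries, by day of pregnancy, with 1 symbol per library and a line at the mean of 3. E4.5 replicate 3 lies at 1344 FPKM of ovary markers and at 201 FPKM of smooth muscle markers, and E15.5 replicate 1 at 1344 FPKM of decidual markers; the dotted line separates the 2 tables, which were normalized separately.

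Each gene is given with the span of its row from first to last exon, introns included, in the coordinates of the table of the early days, which overlap the gene of that name in RefSeq's GRCm38.p6. Fold changes are positive where a gene was higher at E0.5 or at E18.5. A gene met the study's criterion with a log2 fold change of 1 or more in either direction and p under 0.05 without adjustment, and adjusted p-values (Benjamini-Hochberg) cover all rows of a stage.

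Of the ligands, oxytocin itself was barely or not detected in the uterus. Oxt (chr2:130576173-130577054, plus strand) had 0 counts in all 6 libraries of the implantation stage, which allows up to 3 counts in libraries of 58020989 to 70906881 counts (counting error only). At E15.5 it was at 0, 0.0301 and 0.0597 FPKM, and at E18.5 it was listed at 0 in the 3 libraries. Its mean stayed below the 0.1 FPKM that a row needed to be tested, so only the other 9 genes were tested.

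Edn1, the endothelin for which the pathway is best known, was the most abundant endothelin on all 4 days by the mean of the group. Edn1 (chr13:42301476-42307990, plus strand) was at 5.05, 5.44 and 4.22 FPKM at E0.5 and at 1.87, 1.57 and 0.856 FPKM at E4.5. All E0.5 libraries lay above all E4.5 libraries, and the means of 4.91 ± 0.622 and 1.43 ± 0.522 FPKM (SD, n = 3) differed 3.43-fold. The log2 fold change was 1.77 (SE 0.34, 95% interval 0.96 to 2.58), and edgeR's quasi-likelihood test over all rows gave an adjusted p of 0.0653. It was 1.49 without E4.5 replicate 3, with an adjusted p of 0.0131.

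Late in pregnancy Edn1 was at 5.11, 3.24 and 4.48 FPKM at E18.5 and at 1.52, 2.03 and 2.54 FPKM at E15.5. The groups again did not overlap, with the level of E18.5 replicate 2 nearest to the E15.5 libraries. The log2 fold change on the scale of log2(FPKM + 0.1) was 1.04 (SE 0.25, 95% interval 0.45 to 1.63; adjusted p = 0.185 in limma's test), close to the minimum of 1 in the study's criterion. It was 0.86 without E15.5 replicate 1, 0.91 without E18.5 replicate 1, just under 1 without E18.5 replicate 3 and 0.80 with a pseudocount of 1, in each case below that minimum.

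Edn2 and Edn3 were low in every library. Edn2 (chr4:120161206-120167360, plus strand) was at 0.815, 0.367 and 0.418 FPKM at E0.5 (102, 40 and 54 counts) and at 0, 0.0630 and 0.258 FPKM at E4.5 (0, 8 and 31 counts). All E0.5 libraries were above all E4.5 libraries, but the fitted log2 fold change of 2.33 had a 95% interval of -0.68 to 5.34 and an adjusted p of 0.386 in edgeR. Without E4.5 replicate 3 the log2 fold change was 3.98, with an unadjusted p of 0.0171 in edgeR and an adjusted p of 0.133, and Edn2 then met the study's criterion.

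Late in pregnancy Edn2 was at 0.525 FPKM in E15.5 replicate 1, the library with the high decidual markers, and at 0.0431 and 0.0419 FPKM in the others of that day. At E18.5 it was listed at 0 in replicates 1 and 2 and at 0.0484 FPKM in replicate 3. The groups overlapped, with a log2 fold change of -1.03 (limma's adjusted p = 0.571), which was -0.32 without E15.5 replicate 1.

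Edn3 (chr2:174760619-174784042, plus strand), best known for its role in pigment cells and enteric neurons through the B receptor, was higher at E4.5, unlike Edn1. It was at 0.0988, 0.224 and 0.0806 FPKM at E0.5 (35, 69 and 29 counts) and at 0.275, 0.499 and 0.952 FPKM at E4.5 (97, 169 and 319 counts). All E4.5 libraries were higher, by 4.28-fold in the means, and E4.5 replicate 3 was highest. The log2 fold change was -2.05 (SE 0.61, 95% interval -3.51 to -0.60; adjusted p = 0.162 in edgeR) and -1.52 without E4.5 replicate 3. That library also held the most of the 6 Schwann cell and melanocyte markers, 7.18 FPKM against 1.03 to 2.66 FPKM in the other 5, and the part of such cells was not tested. Late in pregnancy it was at 0.0474, 0.0890 and 0.0936 FPKM at E18.5 and at 0.252, 0.105 and 0.0716 FPKM at E15.5, with a log2 fold change of -0.40 (limma's adjusted p = 0.724) that was -0.10 without E15.5 replicate 1.

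Summed over the ligands, endothelin transcripts were at 5.96, 6.03 and 4.72 FPKM at E0.5 but at 2.15, 2.13 and 2.07 FPKM at E4.5, and at 5.16, 3.33 and 4.62 FPKM at E18.5 against 2.30, 2.17 and 2.66 FPKM at E15.5. The sum did not overlap between the days of either stage. Edn1 made up 84.7% to 90.2% of it at E0.5, 41.4% to 87.2% at E4.5, 66.2% to 95.7% at E15.5 and 96.9% to 99.1% at E18.5, and the lowest shares at E4.5 and at E15.5 were those of E4.5 replicate 3 and E15.5 replicate 1.

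Neither of the enzymes met the criterion. Ece1 (chr4:137861772-137965229, plus strand) was at 10.9, 8.05 and 8.08 FPKM at E0.5 and at 11.1, 7.77 and 16.1 FPKM at E4.5. The groups overlapped, and the log2 fold change was -0.36 (95% interval -1.03 to 0.31; adjusted p = 0.555 in edgeR). At E18.5 it was at 20.5, 18.8 and 19.5 FPKM and at E15.5 at 8.87, 18.47 and 17.0 FPKM. The groups did not overlap, by 18.84 against 18.47 FPKM, and the log2 fold change of 0.47 (limma's adjusted p = 0.528) was 0.14 without E15.5 replicate 1, the lowest library.

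Lnpep (chr17:17521410-17625050, minus strand) was the highest of the 10 genes on every day by the mean of the group, although at E4.5 this rested on replicate 3, without which its mean was 12.8 FPKM and that of Ednrb 16.9 FPKM. It was at 10.8, 15.4 and 12.3 FPKM at E0.5 and at 13.3, 12.4 and 21.9 FPKM at E4.5, with a log2 fold change of -0.28 (95% interval -0.91 to 0.35; adjusted p = 0.626 in edgeR). Late in pregnancy it was at 38.9, 41.8 and 36.8 FPKM at E18.5 and at 51.5, 42.2 and 37.8 FPKM at E15.5, with a log2 fold change of -0.15 (95% interval -0.51 to 0.21; adjusted p = 0.712 in limma). The groups overlapped in both stages, and both intervals stayed within 1 on the log2 scale.

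Oxtr (chr6:112473683-112491313, minus strand) changed more than Edn1, the other gene that met the criterion in the labor stage. It was at 6.76, 5.52 and 3.89 FPKM at E18.5 and at 1.496, 1.06 and 1.10 FPKM at E15.5. Every E18.5 library was more than double every E15.5 library, and the means of 5.39 ± 1.44 and 1.22 ± 0.239 FPKM (SD, n = 3) differed 4.42-fold. The log2 fold change was 2.04 (SE 0.24, 95% interval 1.46 to 2.62), with limma's unadjusted p = 7.8e-05 and adjusted p = 0.0709 over the 30928 rows tested. It lay between 1.86 and 2.25 when each library was left out in turn and met the study's criterion in all 6 of these fits.

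In the implantation stage the oxytocin receptor did not separate the days. It was at 3.82, 11.1 and 5.76 FPKM at E0.5 and at 1.53, 3.28 and 9.23 FPKM at E4.5. The highest E4.5 library was replicate 3, the one with the ovary markers, and the log2 fold change of 0.61 had a 95% interval of -0.98 to 2.19 (adjusted p = 0.682 in edgeR). Without that library the 2 remaining E4.5 libraries lay below all E0.5 libraries, and the log2 fold change was 1.52, with an unadjusted p of 0.0203 in edgeR and an adjusted p of 0.147, which met the study's criterion.

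Avpr1a (chr10:122448499-122453452, plus strand), the vasopressin receptor of smooth muscle, was far lower than Oxtr. It was at 0.497, 0.347 and 0.331 FPKM at E0.5 (114, 69 and 77 counts) and at 0.144, 0.242 and 0.187 FPKM at E4.5 (33, 53 and 41 counts). The groups did not overlap and the log2 fold change was 1.04 (SE 0.42, 95% interval 0.05 to 2.04; unadjusted p = 0.0428 and adjusted p = 0.276 in edgeR), but it met the study's criterion in 0 of the 6 fits that left out a library. At E18.5 it was at 0.307, 0.110 and 0.156 FPKM and at E15.5 at 0.106, 0.0632 and 0.153 FPKM, with a log2 fold change of 0.45 (limma's adjusted p = 0.678). The FPKM of Oxtr was 7.19 to 50.3 times that of Avpr1a over the 12 libraries.

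Ednra (chr8:77663031-77724464, minus strand), the endothelin receptor of smooth muscle, overlapped between the days of implantation. It was at 4.999, 6.20 and 5.63 FPKM at E0.5 and at 6.39, 5.03 and 9.18 FPKM at E4.5, with a log2 fold change of -0.28 (95% interval -0.86 to 0.30; adjusted p = 0.602 in edgeR). At E18.5 it was at 13.4, 9.85 and 9.15 FPKM and at E15.5 at 4.88, 7.96 and 8.26 FPKM. All E18.5 libraries were higher, and the log2 fold change of 0.63 (SE 0.25, unadjusted p = 0.0382 and adjusted p = 0.378 in limma) was below the minimum of the criterion and was 0.39 without E15.5 replicate 1.

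Ednrb (chr14:103814621-103844402, minus strand) had the largest change of any endothelin gene that met the criterion at implantation. It was at 3.00, 2.47 and 1.76 FPKM at E0.5 and at 16.1, 17.7 and 5.97 FPKM at E4.5. All E4.5 libraries were higher, with replicate 3 lowest among them, and the means of 2.41 ± 0.622 and 13.3 ± 6.38 FPKM (SD, n = 3) differed 5.51-fold. The log2 fold change was -2.46 (SE 0.46, 95% interval -3.55 to -1.38; adjusted p = 0.0606 in edgeR) and -2.83 without E4.5 replicate 3, with an adjusted p of 0.00196.

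In the labor stage Ednrb was at 12.8, 24.5 and 37.6 FPKM at E18.5 and at 28.6, 38.5 and 35.4 FPKM at E15.5. The groups overlapped through E18.5 replicate 3, and the log2 fold change was -0.57 (95% interval -1.45 to 0.31; adjusted p = 0.576 in limma). It was -0.16 without E18.5 replicate 1 and -0.93 without E18.5 replicate 3 (adjusted p = 0.335).

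**Figure D2:**
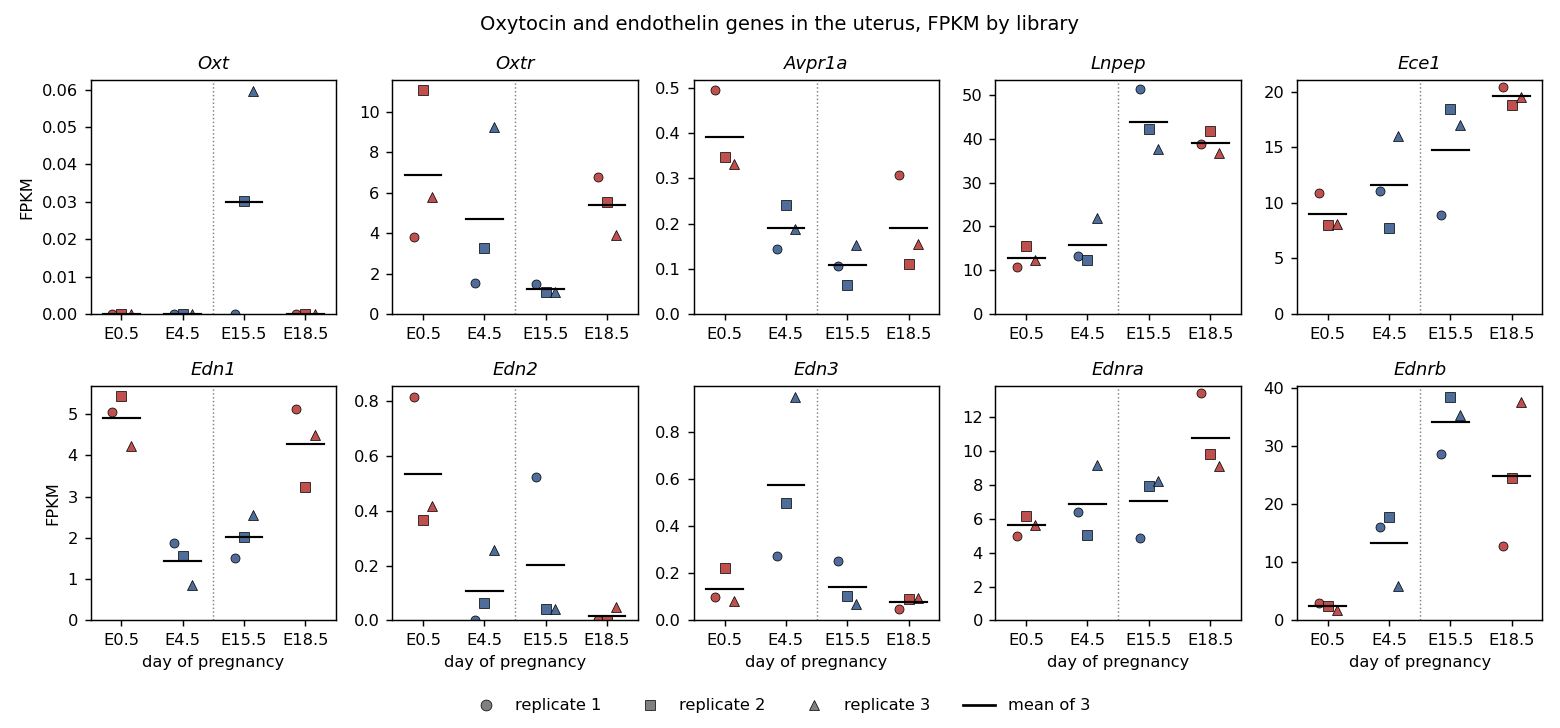
FPKM (vertical axes, from 0 and on a scale of their own in each panel) of the 10 genes in each of the 12 libraries, by day of pregnancy, with 1 symbol per library and a line at the mean of 3. Edn1 lies at 4.22 to 5.44 FPKM at E0.5 against 0.856 to 1.87 FPKM at E4.5. In the labor stage it lies at 3.24 to 5.11 FPKM at E18.5 against 1.52 to 2.54 FPKM at E15.5. Ednrb is lower at E0.5 than at E4.5. The dotted line separates the 2 tables, which were normalized separately.

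By the study's criterion, 4 of the 9 tested genes differed at implantation, beside 12.2% of all 59732 rows tested. Edn1 and Avpr1a were higher at E0.5, beside 6.37% of rows, and Edn3 and Ednrb were higher at E4.5, beside 5.82%. With limma on log2(FPKM + 0.1) for that stage, Edn3 (log2 fold change -1.45) and Avpr1a no longer met it and Edn2 did (1.75). In the labor stage 2 of 9 met it, Oxtr and Edn1, beside 6.05% of all rows: both were higher at E18.5 (3.11% of rows) and 0 were lower (2.93%). The median log2 fold change of the 9 genes was -0.28 at implantation and 0.45 in the labor stage, against -0.01 and 0.02 over all rows. With 9 genes that were chosen by name, these counts describe the genes and are not a test of them.

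The counts moved when libraries were left out. Without E4.5 replicate 3, 5 of 9 genes met the criterion at implantation (Oxtr, Edn1, Edn2, Edn3 and Ednrb), beside 14.1% of rows, and Edn1 and Ednrb passed the adjusted p in edgeR. The log2 fold changes of Lnpep, Ednra and Ece1, which had their highest E4.5 level in that library, were then -0.01, -0.05 and -0.09. Without E15.5 replicate 1, 1 of 9 genes met the criterion in the labor stage, beside 5.0% of rows. That gene was Oxtr, whose log2 difference of 2.18 had an adjusted p of 0.0916 in limma. Leaving out any other library gave 3 of 9 genes at implantation (Edn1, Edn3 and Ednrb), beside 6000 to 7249 of the 59732 rows. In the labor stage it gave 1 gene (Oxtr) without E18.5 replicate 1 or replicate 3, beside 1537 and 2282 of the 30928 rows. Without each of the rest it gave 2, beside 1810 to 2395 rows.

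With the Benjamini-Hochberg adjusted p under 0.05 in place of the unadjusted one, 0 of the 9 genes passed in either stage, beside 1.2% and 0.0259% of all rows. At an unadjusted p under 0.05, whatever the fold change, it was 4 of 9 (17.0% of rows) and 3 of 9 (12.2% of rows). In the implantation stage DESeq2 gave 3 genes past the adjusted p (Edn1, Edn3 and Ednrb), beside 5816 of the 59732 rows. Limma on FPKM gave 1 (Edn1), beside 903 of them. With the filter raised to a mean of 1 FPKM, edgeR gave 2 (Edn1 and Ednrb), beside 1156 rows. In the main fit 730 rows passed, and all these rows are counted at any fold change. The days did not overlap for 5 of 9 genes at implantation (Avpr1a, Edn1, Edn2, Edn3 and Ednrb), 3 of them higher at E0.5, beside 25.2% of rows (12.8% higher and 12.5% lower), and for 4 of 9 in the labor stage (Ece1, Edn1, Ednra and Oxtr), all higher at E18.5, beside 19.9% of rows (10.9% higher and 8.96% lower).

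**Figure D3:**
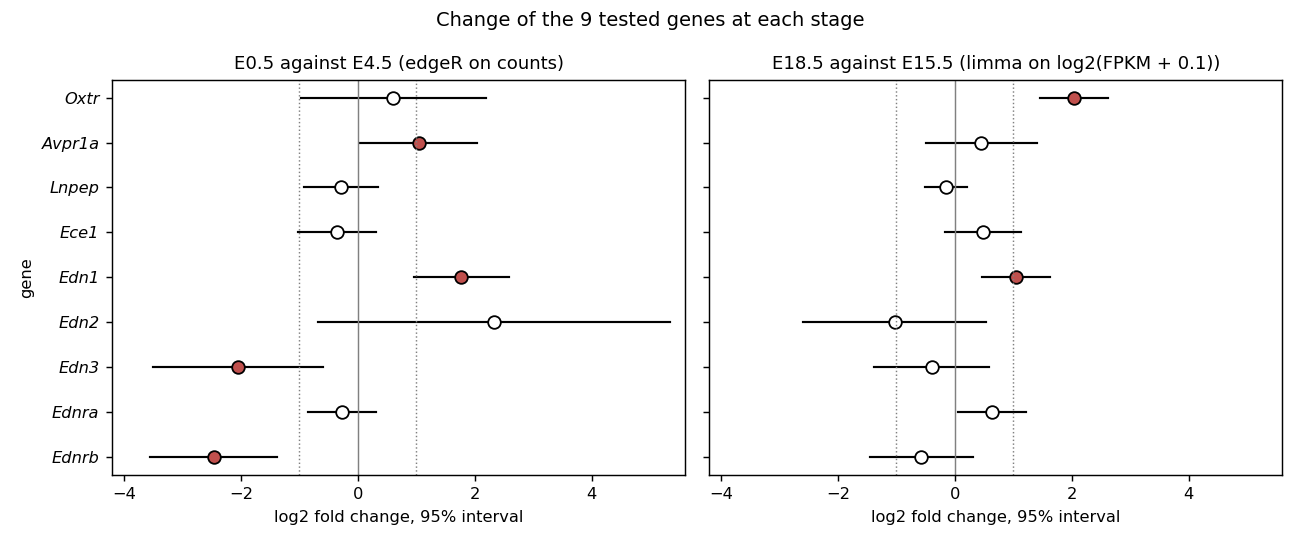
Log2 fold change (horizontal axis) with its 95% interval for the 9 tested genes, E0.5 against E4.5 from edgeR on counts at left and E18.5 against E15.5 from limma on log2(FPKM + 0.1) at right, positive where the gene was higher at E0.5 or E18.5. Filled symbols mark the 4 genes and 2 genes that met the study's criterion, and dotted lines its minimum of 1 in either direction; the interval of Edn2 at implantation runs from -0.68 to 5.34.

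Edn1 was the gene that met the criterion in both stages, higher at E0.5 and at E18.5. Whether the change differed between the stages was tested for each gene over the 12 libraries, as the log2 difference of E0.5 against E4.5 minus that of E18.5 against E15.5. At an adjusted p under 0.05 in limma, 0 of the 9 genes differed, beside 2.64% of the 22056 pairs of rows tested. At an unadjusted p under 0.05 there were 3 of 9, beside 18.2% of the pairs.

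These 3 were Edn2, with a difference of 2.78 (95% interval 0.79 to 4.77, adjusted p = 0.131 in limma), Ednra, with -0.88 (-1.68 to -0.07, adjusted p = 0.231), and Ednrb, with -1.72 (-3.09 to -0.35, adjusted p = 0.171). The size for Edn2, which was listed at 0 in some libraries, depended on the pseudocount. The difference of Edn2 was 0.69 with a pseudocount of 1, and it was larger with 0.01 than with 0.1. That of Edn2 was 2.07 without E15.5 replicate 1 and 3.28 without E4.5 replicate 3. Without E4.5 replicate 3 the difference of Ednrb was -2.22, with an adjusted p of 0.0311 in limma, and Ednrb was then the 1 gene past it. That of Ednra was -0.65 without E4.5 replicate 3 and -0.64 without E15.5 replicate 1, with unadjusted p-values in limma of 0.0804 and 0.0831, and its p was also above 0.05 without E0.5 replicate 1, E0.5 replicate 3 or E18.5 replicate 1. For Oxtr, which met the criterion in the labor stage and not at implantation, the difference was -1.26 with a 95% interval of -2.97 to 0.44, so a difference between the stages was not shown. That value was -0.60 without E4.5 replicate 3 and -1.86 without E4.5 replicate 1 (adjusted p = 0.607 and 0.183 in limma). For Edn1 it was 0.72 (-0.18 to 1.62).

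The balance of the endothelin receptors lay apart between the days of both stages. Ednrb made up 37.5%, 28.5% and 23.8% of the summed FPKM of both receptors at E0.5 and 71.6%, 77.9% and 39.4% at E4.5, with the lowest E4.5 share in replicate 3. It made up 48.8%, 71.3% and 80.4% at E18.5 and 85.4%, 82.9% and 81.1% at E15.5. The shares did not overlap between the days of a stage, being lower at E0.5 and at E18.5, although the labor groups came within 1 percentage point (80.4% against 81.1%). With 3 libraries against 3, an exact permutation test cannot give a two-sided p below 0.1, so such ratios are given without a test. The summed level of both receptors was 7.39 to 8.67 FPKM at E0.5 and 15.1 to 22.8 FPKM at E4.5, without overlap, and 26.2 to 46.7 FPKM at E18.5 and 33.5 to 46.5 FPKM at E15.5, with overlap.

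The order of the genes by mean FPKM within a day changed mainly through Ednrb, which was the sixth at E0.5 and the second, after Lnpep, on the other 3 days (the first at E4.5 without replicate 3). At E0.5 the order was Lnpep, Ece1, Oxtr, Ednra, Edn1, Ednrb, Edn2, Avpr1a, Edn3 and Oxt, and the ranges of neighbours overlapped from Lnpep down to Edn1, and between Edn2 and Avpr1a. At E4.5 the ranges of all neighbours overlapped apart from Edn3 and Avpr1a. At E15.5 Oxtr stood below Edn1 without overlap, and at E18.5 above it with overlap. The levels of Lnpep and Ednrb could not be told apart by range at E4.5, E15.5 or E18.5.

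Markers of the main cell types of the uterus also differed between the days. The 6 epithelial markers (Epcam, Krt8 and others) summed to 217 to 255 FPKM at E0.5 but to 72.8 to 150.6 FPKM at E4.5, and to 593 to 819 FPKM at E18.5 against 197 to 412 FPKM at E15.5, with 3 of the 6 meeting the criterion as higher in each stage. The summed level of the 7 endothelial markers (Pecam1, Cdh5 and others) went the other way, with 26.1 to 30.5 FPKM at E0.5 where E4.5 had 36.9 to 68.6 FPKM and 79.7 to 108 FPKM at E18.5 against 150 to 180 FPKM at E15.5, and with 3 of 7 and 1 of 7 meeting the criterion as lower. Cdh5, a cadherin of vessels, made most of the difference in the labor stage, at 32.8 to 63.8 FPKM at E18.5 against 101 to 129 FPKM at E15.5, while the other 6 summed to 42.8 to 46.9 against 48.4 to 51.4 FPKM. Without E4.5 replicate 3 or E15.5 replicate 1, 2 of the 6 epithelial markers met it in each stage, and the endothelial counts were again 3 and 1. None of the 6 smooth muscle markers met it in either stage, and the summed ranges of the days overlapped. Of the 5 stromal markers, Dcn and Lum met it as higher at E0.5 (Dcn with a log2 fold change of 1.55), both passed the adjusted p without E4.5 replicate 3, and the sum was 382.5 to 576 FPKM at E0.5 against 191.8 to 324.7 FPKM at E4.5. Bmp2, on the decidual list, was lower at E0.5 (log2 fold change -3.44, adjusted p = 0.0187 in edgeR). None of the 4 fat markers met it with all libraries, but 3 of the 4 were higher at E0.5 by it without E4.5 replicate 3, with a sum of 16.6 to 49.3 FPKM at E0.5 against 6.70 and 3.10 FPKM in the remaining E4.5 libraries. The trophoblast and placenta markers were higher at E18.5 (90.9 to 112 FPKM, with 3 of 6 meeting the criterion) than at E15.5 (5.44 to 57.4 FPKM), and their part in the labor results was not tested.

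Set against these sums, Edn1 was higher per endothelial marker and overlapped per epithelial marker. Per 1000 FPKM of endothelial markers it was at 162 to 182.3 at E0.5 against 23.2 to 33.2 at E4.5, and at 36.0 to 64.2 at E18.5 against 9.81 to 17.0 at E15.5. Per 1000 FPKM of epithelial markers it was at 16.6 to 25.1 at E0.5 against 10.4 to 18.7 at E4.5, and at 5.42 to 7.55 at E18.5 against 6.18 to 7.72 at E15.5. With Cdh5 left out of the endothelial markers, a choice made after seeing the data, Edn1 was at 225 to 237 per 1000 FPKM at E0.5 against 33.6 to 57.6 at E4.5, and at 75.7 to 109 at E18.5 against 29.9 to 52.5 at E15.5. The groups thus did not overlap per endothelial marker and overlapped per epithelial marker in both stages. Per 1000 FPKM of stromal markers Edn1 was at 7.33 to 13.2 at E0.5 against 4.46 to 5.76 at E4.5, without overlap. In the labor stage that ratio was 2.09 to 3.32 at E18.5 against 0.965 to 1.33 at E15.5, also without overlap. Per 1000 FPKM of smooth muscle markers the days overlapped at implantation (3.76 to 6.24 against 1.57 to 4.26). They did not overlap in the labor stage (0.820 to 1.46 against 0.522 to 0.6955). The part of epithelial RNA in the change of Edn1 was not tested further.

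Oxtr per 1000 FPKM of smooth muscle markers was at 1.93, 1.40 and 0.885 at E18.5 against 0.514, 0.365 and 0.282 at E15.5, without overlap. At implantation it was at 4.72, 10.1 and 5.12 at E0.5 and at 1.29, 4.21 and 45.9 at E4.5, where the last is replicate 3. Per 1000 FPKM of epithelial markers, Oxtr was at 6.56 to 9.24 at E18.5 and 2.68 to 7.59 at E15.5, with overlap. Per 1000 FPKM of endothelial markers it was at 36.05 to 84.8 at E18.5 and 5.90 to 9.65 at E15.5, without overlap. Per 1000 FPKM of stromal markers it was at 2.16 to 4.38 and 0.578 to 0.949, also without overlap. At implantation the days overlapped against each of these sums.

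Ednrb was lower at E0.5 than at E4.5 against each of 4 marker sums. Per 1000 FPKM of endothelial markers it was at 108, 81.0 and 67.5 at E0.5 and at 235, 375 and 162 at E4.5, without overlap. Per 1000 FPKM of smooth muscle markers it was at 1.57 to 3.71 at E0.5 and 13.5 to 29.7 at E4.5, and per stromal and per epithelial markers the days did not overlap either. For E18.5 and E15.5 the ratio to endothelial markers overlapped, with 161 to 348 at E18.5 and 184.6 to 237 at E15.5, and so did that to stromal markers. Ednrb was lower at E18.5 without overlap per 1000 FPKM of smooth muscle markers (3.66 to 8.54 against 9.06 to 13.2) and of epithelial markers (15.6 to 63.3 against 86.0 to 145). Ednra at E18.5 was above E15.5 per endothelial marker (84.8 to 168 against 31.5 to 55.2) and below it per epithelial marker (15.4 to 16.5 against 20.1 to 26.9), so that the direction of that ratio depended on the markers. Without Cdh5 the overlaps of Ednra and Ednrb per endothelial marker were the same in both stages.

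**Figure D4:**
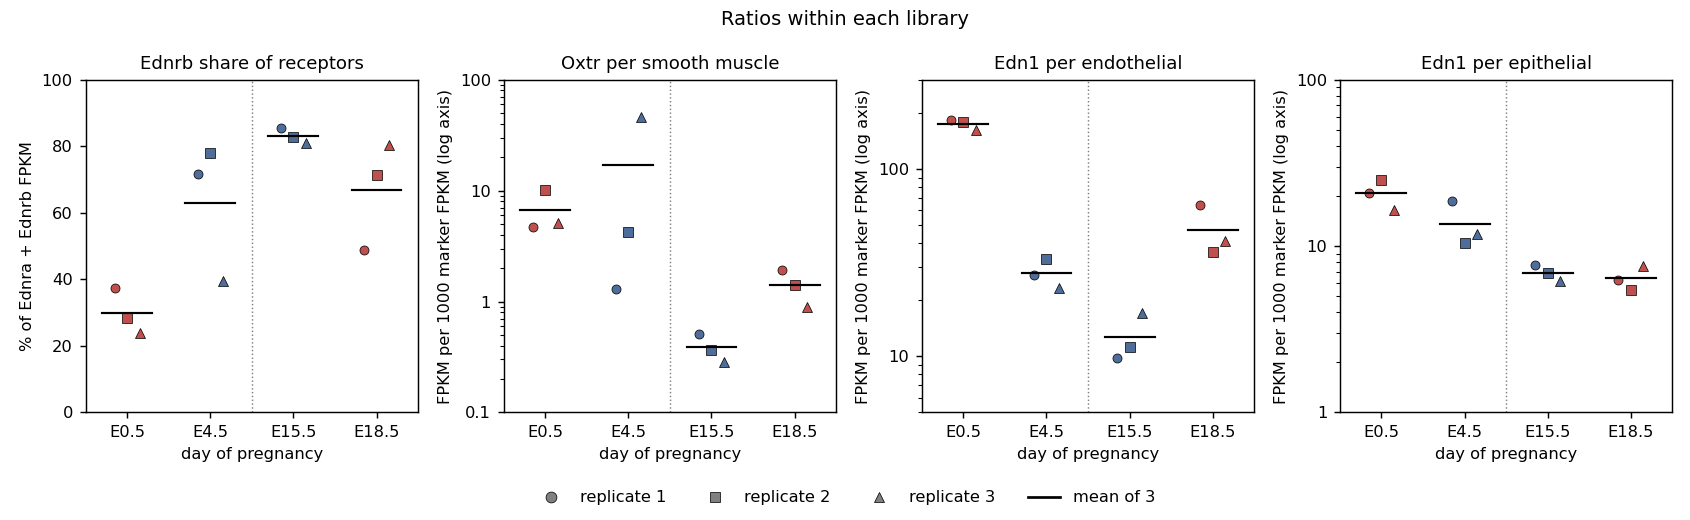
The share of Ednrb in the summed FPKM of both endothelin receptors (in %, from 0 to 100) and the FPKM of Oxtr or Edn1 per 1000 FPKM of a marker list (logarithmic axes), in each of the 12 libraries by day, with a line at the mean of 3. Edn1 per endothelial marker separates the days of both stages, whereas Edn1 per epithelial marker overlaps in both; Oxtr per smooth muscle marker reaches 45.9 in E4.5 replicate 3.

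The genes that act before and after the receptors were followed through 50 gene names on 6 lists, from prohormone processing to myosin. At implantation 5 of 44 tested rows (11.4%) met the study's criterion, 2 higher and 3 lower at E0.5, and in the labor stage 2 of 45 rows (4.44%) did, both higher at E18.5. Both shares were near those of all rows, 12.2% and 6.05%, and 0 rows passed the adjusted p in edgeR or limma. Without E4.5 replicate 3 the first count was 9 of 44 (20.5%, beside 14.1% of all rows), 1 higher and 8 lower. Of these 9, 5 passed the adjusted p in edgeR. Without E15.5 replicate 1 the second count was 1 of 45 (2.22%, beside 5.0% of all rows).

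Upstream of the receptors, Pam, which amidates peptides such as oxytocin, was at 7.93, 8.92 and 8.20 FPKM at E0.5 and at 3.18, 3.25 and 5.83 FPKM at E4.5 (log2 fold change 1.05, adjusted p = 0.108 in edgeR), in a row that also holds the gene B230216N24Rik. Its log2 fold change was 1.36 without E4.5 replicate 3 (adjusted p = 0.00485). Among proteases that cut prohormones, Pcsk5 was at 1.09, 1.38 and 0.896 FPKM at E0.5 and at 13.2, 11.5 and 3.10 FPKM at E4.5 (log2 fold change -3.05, adjusted p = 0.0608, and -3.47 with adjusted p = 0.00115 without that library). Pcsk6 was at 2.66 ± 0.601 FPKM at E0.5, and 5.63 ± 0.914 FPKM were found at E4.5 (SD, n = 3), in a row shared with Snrpa1 (log2 fold change -1.08, adjusted p = 0.0844). Ecel1, a relative of Ece1, was at 0.0210 ± 0.0363 and 0.391 ± 0.362 FPKM (log2 fold change -4.18, adjusted p = 0.279). Mme, a peptidase that breaks down endothelin, was at 4.75 ± 1.99 and 8.58 ± 2.01 FPKM and met the criterion without E4.5 replicate 3 (log2 fold change -1.04, adjusted p = 0.170 in edgeR). Furin, which makes the first cut of the endothelin precursor, was at 8.95 ± 0.952 and 6.34 ± 1.62 FPKM and did not meet the criterion.

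Late in pregnancy Cpe, a carboxypeptidase that trims peptide hormones and had the highest level on its list, was at 34.2, 43.3 and 44.7 FPKM at E18.5 and at 11.2, 20.3 and 29.5 FPKM at E15.5. The groups did not overlap, with a log2 fold change of 1.09 (limma's adjusted p = 0.277), which was 0.72 without E15.5 replicate 1. Rgs4, which shortens Gq signals, was at 8.15, 6.71 and 5.73 FPKM at E18.5 and at 4.36, 2.60 and 2.69 FPKM at E15.5, also without overlap (log2 fold change 1.09, adjusted p = 0.167, and 1.33 without that library). At implantation Rgs4 was at 4.32 ± 1.45 and 3.54 ± 1.98 FPKM (SD, n = 3) and Cpe at 24.7 ± 3.96 and 42.0 ± 41.6 FPKM, the last with 90.0 FPKM in E4.5 replicate 3. Vasopressin (Avp) and its receptor Avpr1b were listed at 0 in the 6 libraries of the implantation stage, and Avpr2 stayed at or below 0.171 FPKM in all 12.

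Behind the receptors, 0 of 12 rows for G proteins, phospholipase C, inositol trisphosphate receptors and protein kinase C met the criterion in either stage. The G proteins were those of the Gq family and those of Gna12 and Gna13, which are not Gq proteins. The gene nearest to the criterion was Itpr2, an inositol trisphosphate receptor, at 4.80 ± 0.587 FPKM at E0.5, and 9.64 ± 1.26 FPKM were found at E4.5 (SD, n = 3), with a log2 fold change just short of -1 (adjusted p = 0.0630 in edgeR), which was chosen for mention after its values were seen. It was -1.11 without E4.5 replicate 3 (adjusted p = 0.0116) and met the criterion, as did Plcb1, a phospholipase C (-1.10). Of 12 rows from the calcium channel to myosin, 1 met it: Ppp1r14a, an inhibitor of myosin phosphatase, with 6.01 ± 0.645 FPKM at E0.5, and 2.99 ± 0.957 FPKM were found at E4.5 (log2 fold change 1.01, adjusted p = 0.147), which was 0.76 without that library and then missed it. The highest group mean there in the labor stage was that of the regulatory light chain, Myl9, at 387, 360 and 441 FPKM at E18.5 and at 169, 411 and 364 FPKM at E15.5, with overlap. Of 10 rows for receptor desensitization, 0 met it at implantation and 1 in the labor stage, Rgs4. Without E4.5 replicate 3, Rgs5 (log2 fold change -1.23, adjusted p = 0.0282 in edgeR) and Rgs2 (-1.46, adjusted p = 0.0756) met it as lower at E0.5. The highest by group mean was Rgs5, a gene of vessel walls that also shortens Gq signals, with 32.3 ± 4.44 and 54.1 ± 38.3 FPKM at E0.5 and E4.5 and 40.3 ± 1.34 and 38.6 ± 6.72 FPKM at E18.5 and E15.5 (SD, n = 3).

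**Figure D5:**
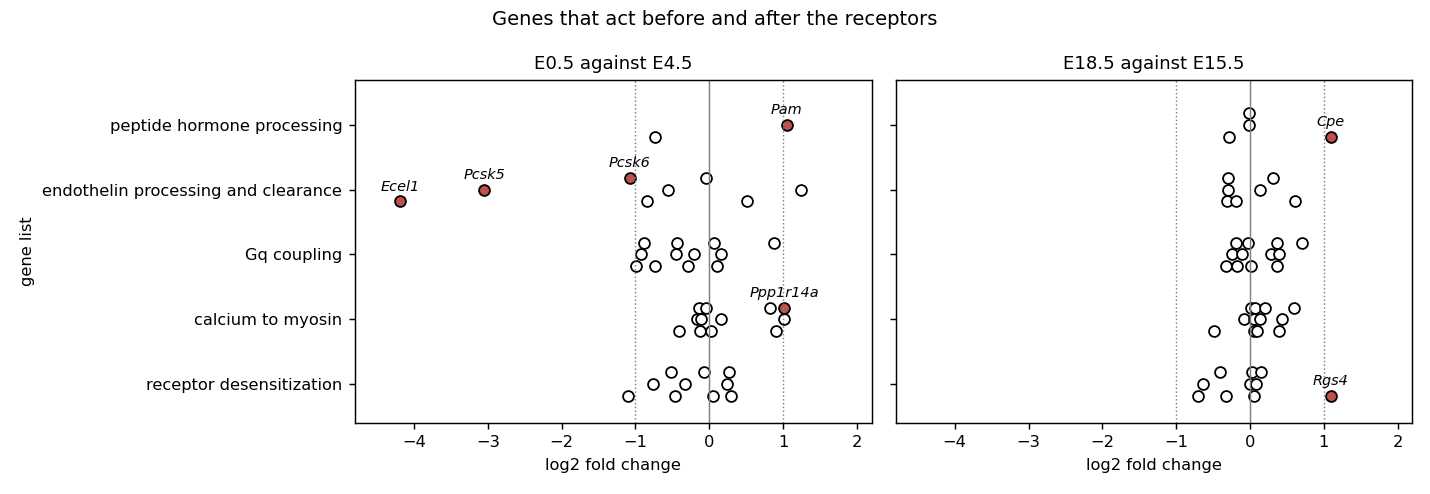
Log2 fold change (horizontal axis, positive where higher at E0.5 or E18.5) of the tested rows of 5 gene lists around the receptors, at implantation at left and in the labor stage at right, each row a symbol shifted up or down only to show overlapping symbols. Filled and named symbols are the 5 rows and 2 rows that met the study's criterion; Ecel1 lies at -4.18 and Pcsk5 at -3.05, and dotted lines mark 1 in either direction.

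Across the 12 libraries, with each gene centred within its table, the genes whose log2 levels followed a member most closely were sought among 10851 pairs of rows of at least 1 FPKM in both tables. For Edn1 they were Smox (Pearson's r = 0.978), Sprr2f (0.971) and Ttc9 (0.967), where Smox oxidizes spermine and Sprr2f encodes a small proline-rich protein of epithelia. For Ednrb they were Cdyl (0.981), Mthfd1l (0.967) and Hif3a (0.955), for Ednra Ctc1 (0.946), Oaz2 (0.933) and Ctcf (0.931), and for Oxtr Dlg1 (0.890), P3h2 (0.888) and Itpripl2 (0.884). These are descriptions over libraries that share their groups, picked as the highest of 10851, and over the 10 libraries without those that stood apart they lay between 0.771 for Ctcf and 0.982 for Cdyl.

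Among the members, Ednrb ran against Edn1 (-0.656) and Oxtr (-0.612) over the same 12 libraries, with -0.869 and -0.675 over the 10 without E4.5 replicate 3 and E15.5 replicate 1. Ednra followed Ece1 over the 12 (r = 0.841) but less so over the 10 (0.305). Oxtr and Edn1 had r = 0.413 over the 12 libraries and 0.770 over the 10.

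The tables also hold assembled rows that carry a member's name without an Ensembl transcript, which the rule left out. One lies at chr4:137966060-137966301, 831 bases past the end of Ece1 in RefSeq, and was at 2.43, 1.92 and 1.38 FPKM at E0.5 but at 0.357, 0.343 and 0.143 FPKM at E4.5. The days did not overlap (log2 fold change 2.67, unadjusted p = 0.0107 and adjusted p = 0.151 in edgeR), on 51, 35 and 30 against 8, 7 and 3 counts, whereas the annotated Ece1 row overlapped. A row on the strand opposite to Lnpep had 161 counts in E0.5 replicate 1 and 0 in the other 5 libraries. How the counting treated strand is not given in the sources used here, so reads of a gene and of an antisense row cannot be told apart.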

How the data were processed

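Reads of 12 uteri were processed by the authors, who trimmed with Cutadapt, aligned with Bowtie2 and Tophat2, assembled with StringTie and quantified with Ballgown. The submitters' processing notes name Bowtie 0.12.2, HISAT2 2.0 and StringTie 1.3.0 with the builds mm8 and mm10, and the library protocol in the labels (poly(A) selection) differs from that of the study's methods (removal of ribosomal RNA). FPKM were deposited by the authors in 1 table per stage, assembled and normalized separately, so levels were not tested across tables. Counts were deposited by the authors for the implantation stage, by a method not given in the sources used here. The value 0.0001 was read as 0 there. Unnamed rows took 1.02% to 1.86% of the counts.

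A row was tested where its 6 libraries in a stage averaged 0.1 FPKM or more, with edgeR 4.0.16 (TMM, quasi-likelihood F-test) on the counts and, in the labor stage, limma 3.58.1 with a trend on log2(FPKM + 0.1), also used for the difference between stages, in R 4.3.3. P-values were adjusted by the Benjamini-Hochberg method over all rows tested. SEs in edgeR were taken from the fold change and its F. A positive fold change means higher at E0.5 or E18.5. The tests were tested on simulated data first. Each library is 1 mouse.

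The members and gene lists were chosen with earlier results of these data known. Of the list genes, those that met the study's criterion in either stage were named, with the highest group mean of some lists (Furin at E0.5 among them), and 1 such result is not reported here. Alternatives were other filters, scalings, pseudocounts and tests (DESeq2 1.42.0, limma on FPKM), the replicate number as a block, and leaving out each library. RefSeq (GRCm38.p6) served for gene ends. No sequences are shown.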

Additional observations from a re-analysis of the deposited data

How the results depend on the processing

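No fold change of a tested gene within a stage turned its direction under any alternative that was run. The difference between the stages turned for Lnpep, from -0.12 to 0.14 without E4.5 replicate 3. Of the single values under alternatives, 202 kept their side of the study's criterion, 3 passed it only there and 14 no longer passed it. In the implantation stage, a filter at a mean of at least 1 FPKM left 4397 rows and 2 of the 6 genes it kept past the criterion (Edn1 and Ednrb; Avpr1a, Edn2 and Edn3 were not tested), and the adjusted p with the fold change minimum left 719 rows and 0 genes. Leaving out 1 library gave 6000 to 8442 rows and 3 to 5 genes, the highest without E4.5 replicate 3. In the labor stage, a pseudocount of 1 left 514 rows and 1 gene (Oxtr), a filter at a mean of at least 1 FPKM 799 rows, and the adjusted p 8 rows and 0 genes. Leaving out 1 library gave 1537 to 2395 rows and 1 to 2 genes. For the difference between the stages, 0 to 1 genes and 193 to 1271 pairs of rows passed the adjusted p when a library was left out, against 0 and 583. The causes were not tested.

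The labels number the mice within a day, and same-numbered libraries did not deviate together (correlations of -0.0628 to 0.0182 at implantation and -0.0485 to 0.017 in the labor stage). With the replicate number as a block, 6234 rows and 3 genes met the criterion at implantation, Avpr1a being lost, and 0 rows passed the adjusted p at any fold change against 730 without the block (5816 in DESeq2 and 3629 without E4.5 replicate 3). In the labor stage 1853 rows and 2 genes met it.

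The precision is limited by 3 mice per day. Among the annotated rows of the 9 tested genes, the widest 95% intervals within a stage were those of Edn2 (-0.68 to 5.34) and Oxtr (-0.98 to 2.19) at implantation. Low genes such as Avpr1a, Edn2 and Edn3 rest on at most 319 counts per library.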
